A study of Mus musculus with 2 samples.

Results

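The cells described here were macrophages of the injured mouse thalamus that carried transcripts of a set of 3 activation genes, Nos2 and Slc7a2 among them. They were chosen by their counts of 10 genes, so the levels of those genes describe the choice and are no result. A cell was selected when it held 3 or more unique molecular identifiers (UMIs, 1 for each captured transcript) of Lyz2, the lysozyme gene of myeloid cells, and 3 or more over the 3 activation genes together. It could hold at most 1 UMI over the microglial genes P2ry12, Siglech and Gpr34, and none of Cd3d, Cd3e and Cd3g, which encode chains of the T cell receptor complex. Of 26145 cells with 200 to 7500 detected genes and at most 5% of UMIs from mitochondrial genes, 877 were selected, 871 of them in the anti-CD9 Ab library and 6 in the control Ab library. The selected cells were split by whether they held any Nos2 UMI (Nos2-positive) or none (Nos2-negative), a split chosen after the data were seen. Nos2-negative cells had to reach 3 UMIs through the other activation genes. In the anti-CD9 Ab library, 241 of 379 Nos2-positive cells held 3 or more Nos2 UMIs and needed no other activation gene. The sets thus met the rule through different genes.

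The libraries came from C57B6/J mice, 12 weeks old, in which part of the sensory and motor cortex had been resected unilaterally (cortical ablation injury, CAI). An antibody against the tetraspanin CD9 (clone KMC8, anti-CD9 Ab) or normal rat IgG (control Ab) was injected at 1.0 µg/µl through a cannula in the thalamus between days 7 and 19, and live CD45 positive cells were sorted from the thalamus on day 21. All mice carried the injury and the cannula, the cells of several mice were pooled, and each antibody had 1 single-cell RNA-seq library, so antibody, pool of mice and library cannot be told apart and no test between the antibodies was possible. The control Ab library held 12245 cell barcodes and 38042608 UMIs, of which 11690 cells were kept with a median of 1848 UMIs, and the anti-CD9 Ab library held 15173 barcodes and 40825201 UMIs, of which 14455 cells were kept with a median of 1712 UMIs. The libraries shared 54 barcodes, none of which was a selected cell in both.

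Nos2 encodes inducible nitric oxide synthase, which turns arginine into nitric oxide and citrulline, and Slc7a2 encodes a cationic amino acid transporter that brings arginine into the cell. In macrophages, microbial products and interferon gamma are known inducers of Nos2, and nitric oxide made by the enzyme is known for its action against microbes and on respiration. Monocytes that enter injured tissue are a known source of macrophages with Nos2.

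Selected cells made up 0.0513% of kept cells in the control Ab library (exact 95% Clopper-Pearson interval 0.0188% to 0.112%) and 6.03% in the anti-CD9 Ab library (5.64% to 6.43%). All intervals given here are 95% intervals that cover counting error only. Those of shares and levels are exact, and those of log2 ratios are normal approximations, which are rough where a count is small. Among the cells that passed every clause except the one on the activation genes, 6 of 360 were selected in the control Ab library (1.67%, 0.614% to 3.59%) and 871 of 3490 in the anti-CD9 Ab library (25.0%, 23.5% to 26.4%). The intervals of the 2 libraries did not overlap on either denominator. Other cells also differed in share between the libraries. Cells with 3 or more UMIs of the microglial genes were 18.4% of kept cells in the control Ab library and 6.54% in the anti-CD9 Ab library, cells with 3 or more Csf3r, Cxcr2 and Retnlg UMIs, called neutrophils below, were 0.522% and 9.33%, and cells with 3 or more Cd3 UMIs, called T cells below, were 47.2% and 19.9%. The microglia and neutrophils of these shares exclude selected cells and cells with a Cd3 UMI. Neutrophils and T cells held at most 1 UMI of the microglial genes. In the anti-CD9 Ab library, 98 selected cells held 3 or more neutrophil UMIs and were not counted as neutrophils.

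The threshold of 3 UMIs did not fall in a gap. In the anti-CD9 Ab library, 171 cells that met the other clauses held 2 UMIs over the activation genes and lay just outside, and 99 held 3 and lay just inside. Saa3 stood at 11717 CPM, the UMIs of a gene summed over the cells and scaled to 1000000 UMIs in all, in the former and 11605 CPM in the latter. Ptges stood at 45.8 and 57.5 CPM, and Inhba at 16.8 and 17.7 CPM. The cells with 20 or more such UMIs, 232 in number, had 33436 CPM of Saa3, 259.9 CPM of Ptges and 89.5 CPM of Inhba. Median depth differed over the same range, from 3767 UMIs at 2 such UMIs to 7108 UMIs at 20 or more. In the control Ab library, 2 cells held 2 such UMIs, 2 held 3, 2 held 4, and the other two held 5 and 10.

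The label of the cells was checked against marker genes. Summed over the 871 cells of the anti-CD9 Ab library, Adgre1 stood at 452.8 CPM, Csf1r at 393.8 CPM and Fcgr1 at 267 CPM. T cells of the same library, taken here as the level that free RNA can give, had 39.6, 37.2 and 22.2 CPM of the same genes, with a median of 2478.5 UMIs per cell against 5870 UMIs in the selected cells. The selected cells thus carried macrophage transcripts above that level. Microglial genes that the rule did not use were below their level in microglia but mostly not absent. Sall1 stood at 2.28 CPM in the selected cells and 166 CPM in microglia, Tmem119 at 44.4 and 264 CPM, Cx3cr1 at 183 and 1140.2 CPM, Olfml3 at 66.0 and 389 CPM and Fcrls at 69.6 and 317 CPM. The list of 11 microglial genes, 3 of them used by the rule, summed to 398 CPM in the selected cells, with Cx3cr1 the most abundant, and 600.3 CPM in the other Lyz2 macrophages described below, and its part in the results was not tested. T cell receptor constant genes were near 0, with Trac at 1.90 CPM and Trbc2 at 2.47 CPM, and so were the dendritic cell genes Flt3 at 3.04 CPM and Zbtb46 at 2.28 CPM. The list of border-associated macrophage genes was mixed. Of its 9 genes, Cd163 at 0.190 CPM, Folr2 at 2.28 CPM, Cbr2 at 3.04 CPM and Lyve1 at 0 UMIs were near 0, while F13a1 at 1289 CPM, Ms4a7 at 532 CPM, Clec4n at 109 CPM, Pf4 at 99.2 CPM and Mrc1 at 20.3 CPM were not. The list summed to 2055 CPM in the selected cells and 1038 CPM in those macrophages, and its part in the results was not tested either.

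Neutrophil genes were present in the selected cells. A UMI of Csf3r, Cxcr2 or Retnlg was found in 473 of the 871 cells (54.3%), of which 98 had 3 or more. Csf3r, the receptor for granulocyte colony-stimulating factor, stood at 150.2 CPM in the selected cells against 38.3 CPM in T cells. The more abundant neutrophil transcripts S100a8 and S100a9 stood at 224 and 289 CPM in the selected cells, at 229 and 396 CPM in T cells and at 11070.2 and 20435 CPM in neutrophils. A doublet caller marked 22.4% of the selected cells in the anti-CD9 Ab library, against 12.1% of all its kept cells. The part of other cells in the profiles below was not tested, and the shares without the marked cells, or without cells holding a neutrophil UMI, stand in the closing section.

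The other genes of the label, Saa3, Ptges and Inhba, were not used by the rule, although the cells were proposed with their levels known. Saa3 encodes serum amyloid A3, an acute-phase protein. It was found in 828 of 871 cells of the anti-CD9 Ab library (95.1%), with a median of 57 UMIs and a highest count of 1409 UMIs in a cell. Its level was 24571 CPM in the selected cells, 7683 CPM in other Lyz2 macrophages, 3279 CPM in microglia, 3704 CPM in neutrophils and 1220.3 CPM in T cells. The selected cells were thus the highest of these groups. Within them, Saa3 stood at 34381 CPM in Nos2-positive and 16852 CPM in Nos2-negative cells, a log2 ratio of 1.03 (1.01 to 1.04). Saa3 was found in 89.0% of selected cells and 36.2% of T cells when each cell was thinned to 2000 UMIs, and the share in T cells stands beside it as the background.

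Ptges encodes the microsomal synthase that makes prostaglandin E2. It was found in 283 of 871 cells (32.5%), at a level of 153 CPM (142 to 164) in the selected cells against 26.4 CPM in other Lyz2 macrophages and 9.85 CPM in T cells. Within the selected cells, Ptges stood at 253 CPM (233 to 274) in Nos2-positive and 73.9 CPM (64.4 to 84.4) in Nos2-negative cells, a log2 ratio of 1.77 (1.55 to 2.00). Inhba encodes the subunit of activin A. It was found in 96 of the 871 cells, at 52.4 CPM (46.4 to 58.9) against 7.80 CPM in other Lyz2 macrophages and 2.30 CPM in T cells. Within the selected cells, Inhba stood at 109 CPM (95.98 to 123) in Nos2-positive and 7.80 CPM (4.94 to 11.7) in Nos2-negative cells. It was found in 80 of 379 Nos2-positive and 16 of 492 Nos2-negative cells, where it summed to 23 UMIs.

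The promoters of these 3 genes are printed to show the sequence next to their starts. These 3 were matched in the table of RefSeq promoters, and Nos2 and Slc7a2 were not. The sequences come from RefSeq (GRCm38.p6) and run from 250 bases before to 50 bases after each start, with Saa3 on the minus strand at chr7:46715627-46715926, Ptges on the minus strand at chr2:30903248-30903547 and Inhba on the plus strand at chr13:16011601-16011900. Capitals mark matches on either strand. In Saa3 they are the interferon-stimulated response letters (GAAA, any 2 bases and GAAA) at -125 and the C/EBP letters TTGCNNAA at -99. In Ptges they are a STAT6-type match (TTC, any 4 bases and GAA) at -197 and a kappaB match (GGG, any 5 bases and CC) at -38, and in Inhba a TATAAA box at -91, a C/EBP match at -67 and a kappaB match at -28.
Saa3: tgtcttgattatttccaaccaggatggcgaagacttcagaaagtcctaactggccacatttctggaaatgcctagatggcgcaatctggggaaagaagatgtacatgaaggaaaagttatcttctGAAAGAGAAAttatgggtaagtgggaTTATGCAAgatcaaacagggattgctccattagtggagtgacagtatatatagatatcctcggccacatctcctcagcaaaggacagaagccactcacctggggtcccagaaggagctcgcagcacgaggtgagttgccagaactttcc
Ptges: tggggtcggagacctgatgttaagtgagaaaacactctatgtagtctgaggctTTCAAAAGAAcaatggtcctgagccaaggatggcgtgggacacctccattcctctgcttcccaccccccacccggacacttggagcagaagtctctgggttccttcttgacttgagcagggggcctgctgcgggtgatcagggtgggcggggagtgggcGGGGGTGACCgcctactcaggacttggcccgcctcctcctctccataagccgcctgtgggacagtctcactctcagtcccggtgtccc
Inhba: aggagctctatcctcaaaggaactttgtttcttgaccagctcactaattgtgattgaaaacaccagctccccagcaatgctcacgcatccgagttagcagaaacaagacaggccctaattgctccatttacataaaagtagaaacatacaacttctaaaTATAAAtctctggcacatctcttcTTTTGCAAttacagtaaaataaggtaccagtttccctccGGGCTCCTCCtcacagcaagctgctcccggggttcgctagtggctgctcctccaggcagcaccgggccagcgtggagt
Of all 32851 promoters in the table, 50.8% held the kappaB letters, 10.8% the C/EBP letters, 3.44% the interferon-stimulated response letters, 6.95% the STAT6-type letters and 13.6% TATAAA. A match describes letters in this window and no more.

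The 6 selected cells of the control Ab library are few enough to be described by cell. Their depths were 10214, 9869, 7193, 7102, 5776 and 4569 UMIs, and Nos2, Ptges and Inhba were at 0 UMIs in all of them. In that order, the cells held 0, 3, 1, 3, 0 and 0 UMIs of Slc7a2. For Saa3 the counts were 1, 0, 166, 0, 49 and 99 UMIs. Saa3 was thus abundant in 3 of the cells and at 0 or 1 UMI in the others. Spp1, which encodes osteopontin, went the other way, with 312, 154, 0, 52, 3 and 2 UMIs. The cell of 9869 UMIs was marked as a predicted doublet. Since 1 UMI equals 22.4 CPM in the 44723 UMIs of these cells, only the more abundant genes could be compared with the anti-CD9 Ab library.

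**Figure D1:**
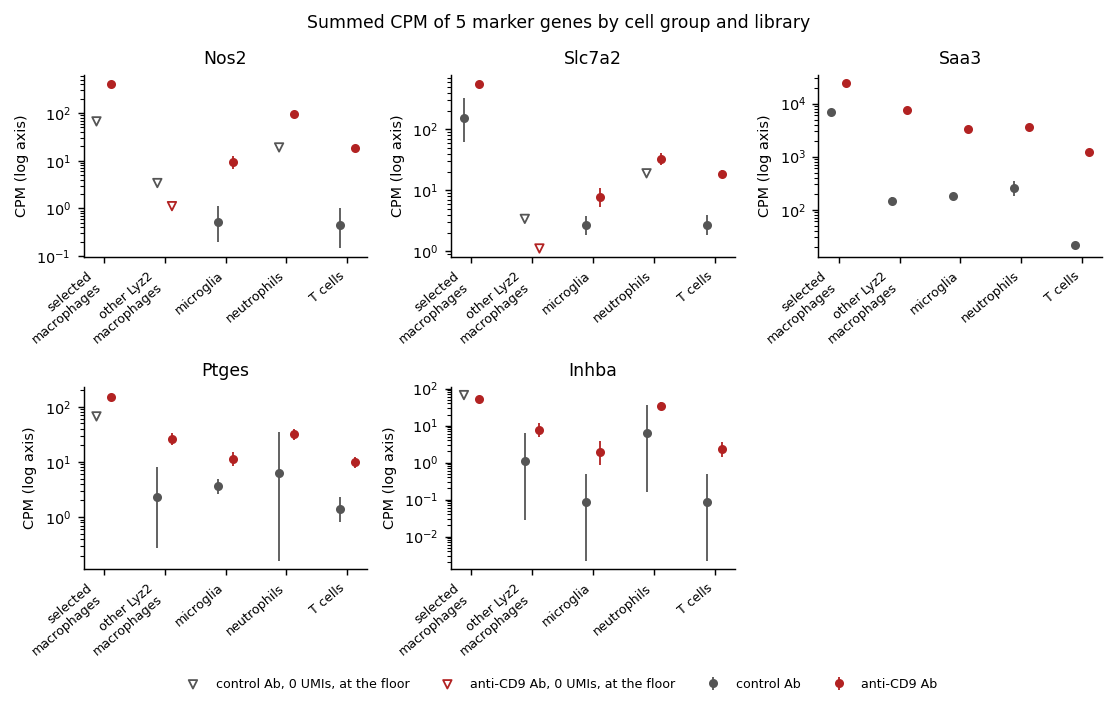
Levels of 5 marker genes summed over cells (CPM, log axis) in the selected macrophages and in 4 other cell groups. Grey points are the control Ab library and red points the anti-CD9 Ab library, lines are exact 95% Poisson intervals, and open triangles stand at the value that 3 UMIs would give where none was counted. In the anti-CD9 Ab library, all 5 genes were highest in the selected cells, which for Nos2 and Slc7a2 follows from the rule, and Saa3 stood at 24571 CPM in them and at 1220.3 CPM in T cells.

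In the anti-CD9 Ab library, 379 of the 871 selected cells were Nos2-positive (43.5%, 40.2% to 46.9%) and 492 were Nos2-negative. In the control Ab library none of the 6 selected cells was, which at 6 cells sets no useful limit on the share, since its interval reaches 45.9%. The median depths of Nos2-positive and Nos2-negative anti-CD9 Ab cells were 5723 and 5960 UMIs, and a Nos2 call needs depth, so the share was also counted by depth. It was 43.6% among cells under 4000 UMIs, 46.3% from 4000 to 6000, 37.7% from 6000 to 8000 and 47.4% at 8000 UMIs or more, with overlapping intervals throughout. Predicted doublets were 29.0% of Nos2-positive and 17.3% of Nos2-negative cells, and a neutrophil UMI was found in 56.5% and 52.6%. Free RNA also enters a call that rests on 1 UMI, and 93 of the 379 Nos2-positive cells held 1 UMI of it. In T cells, Nos2 was found in 2.47% of cells.

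**Figure D2:**
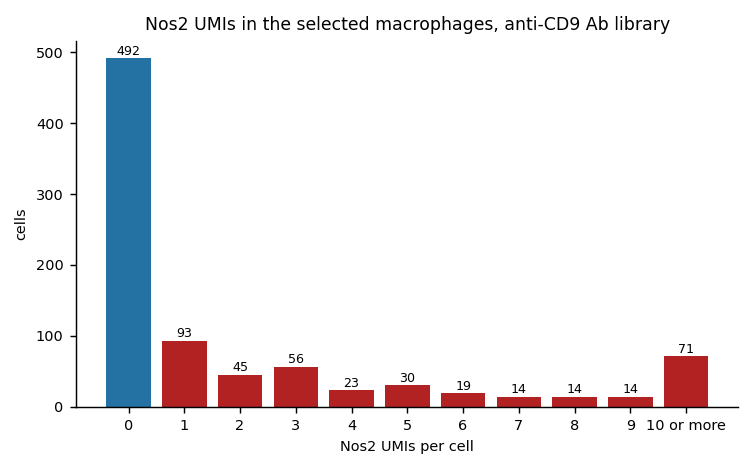
Number of selected cells of the anti-CD9 Ab library (vertical axis) by their Nos2 UMIs (horizontal axis, the last bar holding all cells with 10 or more). The blue bar is the 492 Nos2-negative cells and the red bars are the 379 Nos2-positive cells, of which 93 held 1 UMI and 71 held 10 or more.

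Among Nos2-positive cells, Nos2 had a median of 3 UMIs, 14 UMIs at the ninetieth percentile and a highest count of 47 UMIs, and its summed level was 943 CPM (904 to 983). Counts thus varied widely from cell to cell. Slc7a2, which entered the rule, stood at 879 CPM (842 to 918) in Nos2-positive and 309.8 CPM (290.0 to 331) in Nos2-negative cells, and was found in 259 of 379 and 206 of 492 cells. Its highest count in a cell was 86 UMIs.

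Genes were then compared between the 379 Nos2-positive and the 492 Nos2-negative cells of the anti-CD9 Ab library. Of 3222 genes with a mean level of at least 50 CPM over both sets, 148 were 2-fold or more higher in Nos2-positive cells, which is 4.59% of the genes compared, and 114 were 2-fold or more lower, which is 3.54%. Of these, 50 and 59 were under 50 CPM on their lower side, so they passed only through the side on which they were higher and had to differ. Among list members these were Nos2, Inhba, Ptgs2, Timp1, Cd40, Traf1, Gbp3, Igtp, Hilpda, Il7r, Ighg2b, Jchain, Fcrls, Olfml3, Pf4, Tgfbr2 and 6 type I interferon genes. Among genes named below from outside the lists, they were Procr, Cxcl11, Rnase4, Itga6, Nrp1, Cebpa, Tmem37, Slc9a9, Rad51b and Syngr1. The median log2 ratio over all genes compared was -0.08. Nos2 itself is among these counts and follows from the split, and so are other genes of the rule that passed the filter. The sets met the rule through different genes, and the part of that in the ratios was not tested. Inflammatory and interferon-induced genes were on the higher side in Nos2-positive cells. Genes of lipid handling and lysosomes, and the 3 microglial genes that passed, were on the higher side in Nos2-negative cells. Each list below is described by its members' counts, beside these background shares, with no test on the list.

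Of 16 listed genes of the type I interferon response, 14 passed the filter on level, 11 were 2-fold or more higher in Nos2-positive cells and none was 2-fold or more lower, with a median log2 ratio of 2.01. Of the 11, Ifit1, Ifit2, Ifit3, Mx1, Oasl1 and Usp18 passed only through Nos2-positive cells. Isg15, a ubiquitin-like protein induced by interferon, stood at 833 CPM (796 to 871) in Nos2-positive and 181 CPM (166 to 197) in Nos2-negative cells. These intervals cover counting error only and not the spread among cells. In selected cells thinned to 2000 UMIs, the variance of Isg15 divided by its mean was 5.36. When each cell was thinned to 2000 UMIs, Isg15 was found in 58.9% and 22.03% of the cells of these sets and in 21.2% of T cells. The share in Nos2-negative cells was therefore near that in T cells. Rsad2, which encodes the antiviral enzyme viperin, stood at 333 CPM in Nos2-positive and 58.6 CPM in Nos2-negative cells, a log2 ratio of 2.51 (2.27 to 2.74), the highest of the list. Ifit1, another antiviral gene, followed at 2.37. Ifitm3 was the most abundant gene of the list. Bst2, which encodes the membrane protein tetherin, had the lowest ratio, 0.67.

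The promoters of Isg15 and Rsad2 are printed because these 2 genes are the first ones described for the interferon list. They come from RefSeq (GRCm38.p6), run from 250 bases before to 50 bases after the start, and lie on the minus strand at chr4:156200769-156201068 and chr12:26456403-26456702. Capitals mark matches to the interferon-stimulated response element (ISRE, GAAA, any 2 bases and GAAA, on either strand), which fall at -78, -72 and -66 in Isg15, where they overlap, and at -120 in Rsad2. In Rsad2, capitals also mark AP-1 (TGANTCA) at -87, kappaB (GGG, any 5 bases and CC) at -75 and a TATAAA box at -10.
Isg15: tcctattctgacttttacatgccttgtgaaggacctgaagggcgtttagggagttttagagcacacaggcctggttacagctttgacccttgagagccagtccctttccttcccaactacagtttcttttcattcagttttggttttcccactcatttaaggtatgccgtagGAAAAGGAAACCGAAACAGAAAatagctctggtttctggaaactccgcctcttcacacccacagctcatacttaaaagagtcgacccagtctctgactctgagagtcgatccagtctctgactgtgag
Rsad2: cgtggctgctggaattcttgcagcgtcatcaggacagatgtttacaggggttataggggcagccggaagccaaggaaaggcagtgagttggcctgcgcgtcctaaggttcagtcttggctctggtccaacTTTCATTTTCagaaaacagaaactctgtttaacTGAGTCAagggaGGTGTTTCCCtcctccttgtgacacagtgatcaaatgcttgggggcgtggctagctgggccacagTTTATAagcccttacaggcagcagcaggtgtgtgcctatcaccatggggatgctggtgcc
Among all 32851 RefSeq promoters, 3.44% held the ISRE letters. Of the genes compared between Nos2-positive and Nos2-negative cells, 3374 promoters were matched and 4.33% held them. The share was 18.0% of the 150 promoters of genes 2-fold or more higher in Nos2-positive cells and 6.96% of the 115 promoters of genes 2-fold or more lower. The AP-1 letters were in 7.81% of all promoters, 5.96% of those compared, 24.0% of the higher and 11.3% of the lower group. The kappaB letters were in 50.8% of all promoters and in 67.2%, 64.7% and 63.5% of these groups. These shares describe the letters only.

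The inflammatory cytokine and NF-kB feedback genes differed in the same direction. Of 24 listed, 15 passed the filter, 10 were 2-fold or more higher in Nos2-positive cells and none lower, with a median log2 ratio of 1.08. Il1rn, which encodes the interleukin-1 receptor antagonist, had the highest ratio, 2.07. Il1a, which encodes interleukin-1 alpha, stood at 237 CPM in Nos2-positive and 62.7 CPM in Nos2-negative cells, a log2 ratio of 1.92 (1.68 to 2.16). Il1b, the most abundant of the list, stood at 2054 CPM and 705 CPM, and was found in 61.1% and 25.6% of cells thinned to 2000 UMIs, against 11.3% of T cells. Both forms of interleukin-1 and their antagonist were thus higher in the same set of cells. Cd40, the costimulatory receptor, stood at 137 CPM and 38.98 CPM. Acod1, the enzyme that makes itaconate, stood at 1302 CPM and 521 CPM. Rel, a subunit of NF-kB, had the lowest ratio of the list, 0.04. Neutrophils of the same library had higher levels than Nos2-positive cells of Il1b, at 6681 CPM, and of Acod1, at 3856 CPM, but not of Cd40, at 27.8 CPM. What free RNA from neutrophils added to the former was not tested. Il12b was at 15.1 CPM in Nos2-positive cells and at 0 UMIs in Nos2-negative cells, and Il10 was at 1 and 3 UMIs.

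Of 21 chemokine genes, 12 passed the filter, 5 were 2-fold or more higher in Nos2-positive cells and none lower, with a median log2 ratio of 0.89. Cxcl9, a ligand of CXCR3 on T cells, stood at 874 CPM (836 to 913) in Nos2-positive and 121 CPM (109 to 134) in Nos2-negative cells, a log2 ratio of 2.85 (2.69 to 3.01). Cxcl11, another CXCR3 ligand that was not on the list, stood at 97.8 CPM and 18.98 CPM. Ccl5, the most abundant chemokine of the list, stood at 7446 CPM and 2483 CPM, and Ccl6 had the lowest ratio, -0.74. The ratio of Ccl5, 1.58, was thus well below that of Cxcl9, although its level was higher in both sets. Of 28 genes of the interferon gamma response and antigen presentation, 23 passed, 8 were 2-fold or more higher in Nos2-positive cells and none lower, with a median of 0.62. Gbp2, a guanylate-binding protein, led them with 473 CPM against 138 CPM, a log2 ratio of 1.78 (1.61 to 1.94). Cd74, the invariant chain, was the most abundant, with a ratio of -0.07, and H2-Eb1, a class II chain, had the lowest ratio, -0.25.

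**Figure D3:**
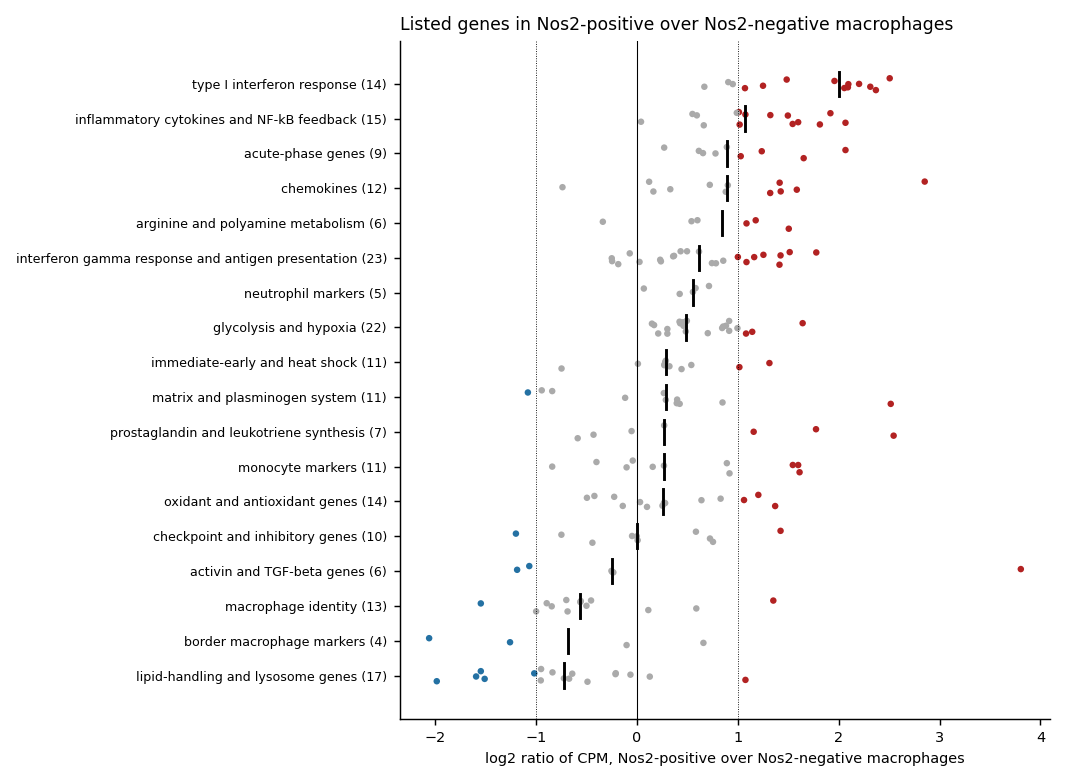
Log2 ratios of CPM in Nos2-positive over Nos2-negative cells of the anti-CD9 Ab library for each listed gene that passed the filter on level, for lists with at least 4 such genes and with Nos2 left out. Each point is a gene, numbers in brackets are the genes plotted, thick bars are list medians, dotted lines mark 2-fold, and red and blue points lie past it. Among the lists plotted, type I interferon genes lie furthest to the right with a median of 2.01, and lipid and lysosome genes furthest to the left with a median of -0.72. The microglial list, of which 3 genes passed with a median of -1.95, is not plotted.

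Some genes around arginine also differed. Of 21 listed genes of arginine and polyamine metabolism, 7 passed the filter, 4 were 2-fold or more higher in Nos2-positive cells and none lower. Nos2 and Slc7a2, which entered the rule, were among the 4. Apart from Nos2, the 6 genes that passed had a median log2 ratio of 0.84, and Sat1 had the lowest ratio, -0.34. Ass1, which regenerates arginine from citrulline, stood at 412 CPM in Nos2-positive and 194 CPM in Nos2-negative cells. Gch1, the first enzyme of synthesis of the nitric oxide synthase cofactor tetrahydrobiopterin, stood at 132 CPM and 58.3 CPM. Both were higher where Nos2 was found, and neither had entered the rule. Genes of the interleukin-4 response were mostly too low to compare, since only 2 of 17 passed the filter. Retnla was at 0 UMIs in all 871 cells, and Mrc1, the mannose receptor, stood at 7.75 CPM in Nos2-positive and 30.2 CPM in Nos2-negative cells. Chil3, which belongs to that list and to the monocyte list, stood at 481 CPM and 431 CPM.

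Among genes of prostaglandin and leukotriene synthesis, 7 of 18 passed, 3 were 2-fold or more higher in Nos2-positive cells and none lower, with a median of 0.27. Ptgs2, the inducible cyclooxygenase, stood at 121 CPM (107 to 136) in Nos2-positive and 20.7 CPM (15.8 to 26.6) in Nos2-negative cells, a log2 ratio of 2.54 (2.14 to 2.94) and the highest of the list. Ptges, the synthase that follows it on the way to prostaglandin E2, was also among the 3. Tbxas1, the thromboxane synthase, was on the other side at 134 CPM and 201 CPM. Pla2g7 was the most abundant of the list. Of the activin and TGF-beta genes, 6 of 16 passed, 1 was 2-fold or more higher and 2 lower, with a median of -0.25. The gene on the higher side was Inhba, with a ratio of 3.81 (3.19 to 4.42), and Tgfbr1, a TGF-beta receptor subunit, was the lowest with a ratio of -1.19. Over all genes, Inhba had the highest ratio of the genes named apart from Nos2 and the immunoglobulin gene Ighg2b.

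Nos2-negative cells were on the higher side for genes of lipid handling and lysosomes. Of 22 listed, 17 passed, 5 were 2-fold or more lower in Nos2-positive cells and 1 higher, with a median log2 ratio of -0.72. Trem2, a lipid-sensing receptor, stood at 621 CPM (593 to 649.7) in Nos2-negative and 157 CPM (141 to 174) in Nos2-positive cells. In cells thinned to 2000 UMIs it was found in 59.03% and 21.4%, against 4.52% of T cells. Apoe, the most abundant of the list, stood at 23771 CPM and 8129 CPM in that order, and Gpnmb, a lysosomal glycoprotein, at 533 CPM and 187 CPM. Msr1, a scavenger receptor, was the gene on the other side, with a ratio of 1.08. Cd9, the target of the injected antibody, differed little, with 294 CPM in Nos2-positive and 341 CPM in Nos2-negative cells, a log2 ratio of -0.21 (-0.35 to -0.07).

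Macrophage identity genes were mixed. Of 15, 13 passed, of which 3 had a ratio above 0, and 1, Apoe, was 2-fold or more lower in Nos2-positive cells and 1, Cd14, higher, with a median of -0.56. C1qa, a chain of the complement initiator C1q, stood at 2532 CPM in Nos2-negative and 1409.6 CPM in Nos2-positive cells. Of 11 microglial genes, 3 passed, and all 3 were 2-fold or more lower in Nos2-positive cells, with a median of -1.95. Cx3cr1, the fractalkine receptor, stood at 71.1 CPM in Nos2-positive and 272 CPM in Nos2-negative cells, while Fcrls and Olfml3 passed only through Nos2-negative cells, Fcrls with 20.7 and 108 CPM. Of 9 border macrophage genes, 4 passed, 2 were 2-fold or more lower in Nos2-positive cells and none higher, with a median of -0.68. Clec4n was the 1 gene with a ratio above 0, at 0.66. Pf4, which encodes platelet factor 4, had the lowest ratio, -2.06 (-2.40 to -1.72). It stood at 149 CPM (136 to 164) in Nos2-negative and 35.8 CPM (28.5 to 44.3) in Nos2-positive cells, and it too passed only through Nos2-negative cells. After thinning to 2000 UMIs, Pf4 or Mrc1 was found in 19.2% of Nos2-negative and 5.63% of Nos2-positive cells, beside 0.735% of T cells and 5.65% of neutrophils, so the share in Nos2-positive cells was no higher than in neutrophils. Monocyte genes were mixed. Of 11 that passed, 3 were 2-fold or more higher in Nos2-positive cells and none lower, with a median of 0.27. Plac8 led them with 2433 CPM in Nos2-positive and 796 CPM in Nos2-negative cells, Ccr2, the monocyte chemokine receptor, had a ratio of -0.40, and Fn1, which encodes fibronectin, was the lowest with -0.84.

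The Pf4 promoter is shown as that of the border macrophage gene furthest toward Nos2-negative cells. It lies on the plus strand at chr5:90772185-90772484, and capitals mark C/EBP letters (TTGCNNAA) at -212 and the hypoxia letters ACGTG at 43 bases after the start.
Pf4: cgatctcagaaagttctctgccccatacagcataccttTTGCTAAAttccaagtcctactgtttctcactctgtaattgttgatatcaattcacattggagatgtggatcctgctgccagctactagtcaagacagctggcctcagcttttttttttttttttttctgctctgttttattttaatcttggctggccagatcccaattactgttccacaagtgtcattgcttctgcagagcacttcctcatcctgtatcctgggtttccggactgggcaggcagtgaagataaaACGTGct
The C/EBP letters were in 10.8% and the hypoxia letters in 19.6% of all RefSeq promoters, and none of the ISRE, AP-1 or kappaB letters were in this window.

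**Figure D4:**
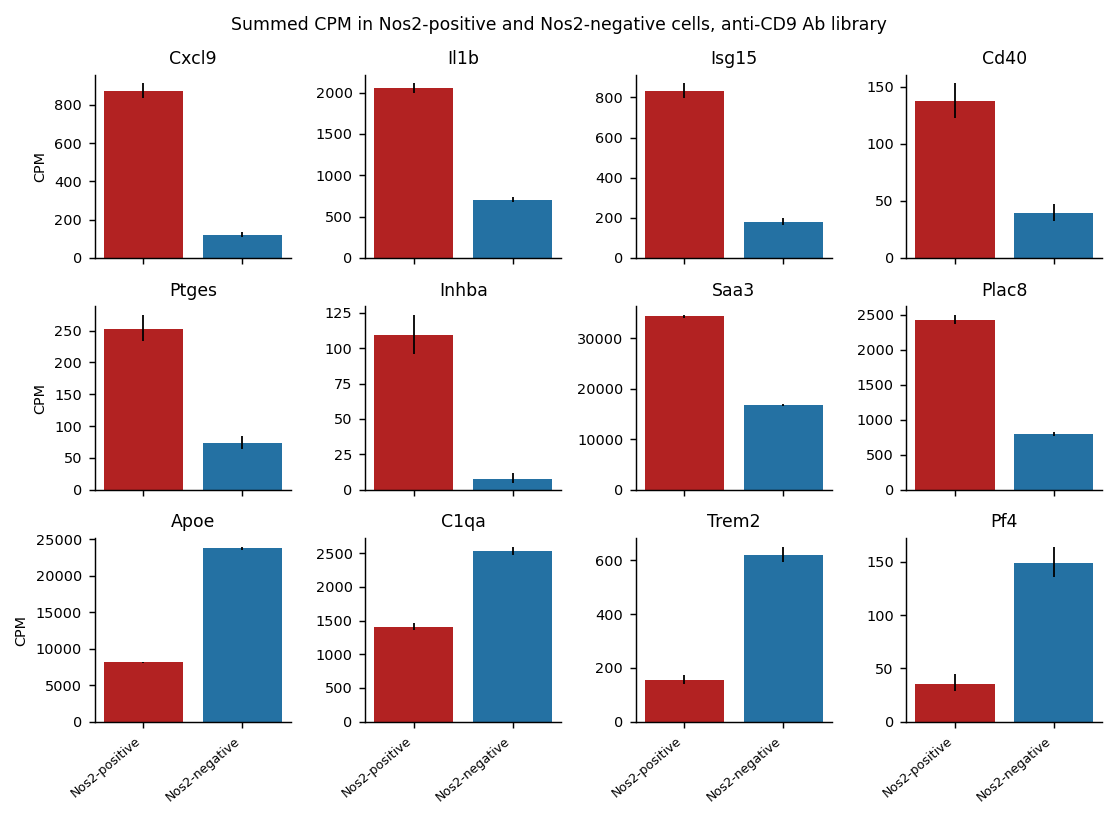
Levels of 12 genes summed over the 379 Nos2-positive (red) and 492 Nos2-negative (blue) selected cells of the anti-CD9 Ab library (CPM, linear axes from 0), with exact 95% Poisson intervals as lines. Cxcl9 stands at 874 CPM in Nos2-positive and 121 CPM in Nos2-negative cells, Saa3 at 34381 CPM and 16852 CPM, and Apoe at 8129 CPM and 23771 CPM.

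Among the remaining lists, acute-phase genes had 4 of 9 on the 2-fold higher side in Nos2-positive cells and a median of 0.89, with Il1rn in the lead. Genes of glycolysis and hypoxia had 3 of 22 higher and none lower, with a median of 0.49, all 22 ratios above 0 and Hilpda, a lipid droplet protein induced by hypoxia, in the lead at 1.64. Egln3, a hypoxia-induced prolyl hydroxylase, stood at 109 CPM and 88.8 CPM. Oxidant and antioxidant genes had 3 of 14 higher and none lower, with Slc7a11, the cystine transporter, at 1.37 and Gclm, a subunit of the enzyme that starts glutathione synthesis, at -0.50. Matrix and plasminogen genes had 1 of 11 on each side, with Timp1, an inhibitor of matrix proteases, at 2.52 and Timp2, another one, at -1.08. Checkpoint genes had 1 of 10 on each side, with Cd274, which encodes PD-L1, at 1.42 and Lgals1, which encodes galectin-1, at -1.20. Immediate-early and heat shock genes, which respond to handling of tissue, had 2 of 11 higher, with Dusp1 at 1.31 and Fos lowest at -0.75. None of 5 neutrophil genes was past 2-fold, with a median of 0.55 and Wfdc17 the highest at 0.71.

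The genes furthest apart included some outside the lists. After Nos2 and Ighg2b, Inhba and Cxcl9, the highest ratios were those of Jchain, Procr, Ptgs2, Timp1, Rsad2 and Ifit1. Procr, which encodes the endothelial protein C receptor, stood at 93.5 CPM in Nos2-positive and 15.6 CPM in Nos2-negative cells, and passed the filter only through the former. On the lower side, Rnase4, a secreted ribonuclease, led with a ratio of -3.01 (-3.52 to -2.50), followed by the integrin gene Itga6 at -2.92 and the neuropilin gene Nrp1 at -2.64. Rnase4, Itga6 and Nrp1 were under 50 CPM in Nos2-positive cells, passed the filter only through Nos2-negative cells and had to differ. Selenop, which encodes the selenium carrier selenoprotein P, stood at 68.9 CPM and 360.3 CPM. Cebpa, which encodes a myeloid transcription factor, stood at 24.99 CPM and 108 CPM, and passed only through Nos2-negative cells. Tmem37, Fcrls, Slc9a9, Rad51b and Syngr1 had ratios from -2.44 to -2.28, and they too passed only through Nos2-negative cells. Ighg2b and Jchain are transcripts of plasma cells. All 3 genes of the B and plasma cell list that passed had ratios of 2-fold or more, with Igkc the most abundant at 778 CPM in Nos2-positive and 229 CPM in Nos2-negative cells. The ratio of Igkc was 1.76, but 0.53 with a mitochondrial limit of 2% and 0.89 without predicted doublets, short of 2-fold in both. After thinning, Igkc was found in 24.8% of Nos2-positive and 29.5% of Nos2-negative cells. The higher level thus came with no larger share of cells and did not keep its size under these settings, and the part of these transcripts in the comparison was not tested.

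The selected cells were then set beside 1034 other Lyz2 macrophages of the same library. These held 3 or more Lyz2 UMIs, no UMI of the activation, Cd3 or neutrophil genes, at most 1 of the microglial genes and at least 1 of Csf1r, Adgre1, Fcgr1, C1qa and C1qb, and their median depth was 1533 UMIs against 5870 UMIs in the selected cells. Of 3333 genes with a mean level of at least 50 CPM, 50 (1.5%) were 2-fold or more higher in the selected cells and 65 (1.95%) lower, with a median log2 ratio of -0.07. Of these, 19 and 31 were under 50 CPM on their lower side, so they passed only through the side on which they were higher and had to differ. Among genes named here and in the lists below these were Nos2, Slc7a2, Csf3r, Ptges, Pf4, Ecm1, Junos, Egln3, Oasl1, Ciita, Hpgds, Ifitm6 and Cst7. The immunoglobulin genes Iglc2, Ighg1, Ighg2c and Ighm, and Mzb1 of the B and plasma cell list, were such genes too. The values of all of them are given as a description. The genes of the rules, such as Slc7a2, Nos2 and Csf3r, lead the higher side because the rules set them to 0 in the other macrophages. Next came Ptges, with 153 CPM (142 to 164) against 26.4 CPM (20.6 to 33.2), a log2 ratio of 2.53 (2.18 to 2.88). Cacna1d, a calcium channel subunit, followed with 473 against 92.4 CPM, then Pf4 with 99.2 against 23.4 CPM and Ecm1, an extracellular matrix protein, with 159.9 against 39.7 CPM. After them came Junos with 120.65 against 30.07 CPM and the syndecan gene Sdc4 with 465 against 141 CPM. Saa3 stood at 24571 against 7683 CPM, a log2 ratio of 1.68 (1.66 to 1.70). Cd9 was lower in the selected cells, at 320.4 CPM against 819 CPM, a log2 ratio of -1.35 (-1.44 to -1.26).

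Genes of glycolysis and hypoxia had higher levels in the selected cells for nearly every member. Of 20 that passed, 19 had a ratio above 0 and 3 were 2-fold or more higher, with a median of 0.70, and Egln3 led at 1.43. Ldha, the lactate dehydrogenase subunit, stood at 717 against 443 CPM, and Pgk1, a glycolytic kinase, at 642 against 398 CPM. Acute-phase genes had 2 of 9 higher and a median of 0.59. The cytokine and NF-kB feedback genes had 14 of 15 ratios above 0 but 1, Il1a at 1.24, past 2-fold, with a median of 0.30. Type I interferon genes had 1 of 13 past 2-fold, Oasl1 at 1.14, and a median of 0.27, and interferon gamma genes had none higher and Ciita lower at -1.26, with a median of -0.17. Isg15, which lay far apart between Nos2-positive and Nos2-negative cells, stood at 468 CPM in the selected cells as a whole and 328 CPM in the other macrophages, a log2 ratio of 0.51 (0.40 to 0.62), and Cxcl9 at 453 and 330 CPM, a ratio of 0.46 (0.35 to 0.57). These ratios came with different depths, and among cells of 4000 UMIs or more, an alternative added after seeing the data, the ratio of Isg15 was 1.15, past 2-fold, that of Rsad2 2.28 in place of 0.70, that of Il1rn 1.80 in place of 0.25 and that of Cxcl9 0.68. The type I interferon median was 0.76 there, and 0.13 without predicted doublets. With the mean over cells of CPM, the ratios of Isg15, Rsad2 and Il1rn were lower than reported, at 0.28, 0.19 and -0.46, and that of Cxcl9 was higher, at 0.77.

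Other lists showed members on both sides. Monocyte genes had 3 of 12 higher, led by F13a1 at 1.33, and 3 lower, with Ifitm6, an interferon-induced membrane protein, at -2.05. Matrix genes had Fn1, which encodes fibronectin, at 1.24 and Spp1 at -1.93. Oxidant genes had 2 of 14 higher, with Hmox1 at 1.55, and lipid and lysosome genes 2 of 18 higher, with Msr1 at 1.30, and 2 lower, with Cst7, the cystatin F gene, at -1.89. Chemokines had Ccl5 at 1.19 and Cxcl13, the B cell chemokine, at -2.12, with a median of -0.35. Of 4 border macrophage genes that passed, F13a1 was higher past 2-fold, and so was Pf4, which passed only through the selected cells. Of 3 microglial genes none was past 2-fold, with a median of -0.54 and Fcrls the lowest at -0.59. Identity genes had Cd14 higher at 1.03 and a median of 0.13. Prostaglandin genes other than Ptges included Hpgds, the prostaglandin D synthase, at -1.10. None of 11 checkpoint, 11 immediate-early and 5 activin and TGF-beta genes was past 2-fold, with medians of 0.29, -0.21 and -0.36. After thinning to 2000 UMIs, Ccr2 was found in 19.2% of selected cells and 37.0% of the other macrophages, Gpnmb or Fabp5 in 53.2% and 37.6%, and Pf4 or Mrc1 in 13.2% and 3.72%. In neutrophils and T cells these shares were 12.6% and 39.5% for Ccr2, 39.1% and 20.5% for Gpnmb or Fabp5, and 5.65% and 0.735% for Pf4 or Mrc1. The shares of the other macrophages for Gpnmb or Fabp5 and for Pf4 or Mrc1 were thus no higher than those of neutrophils but above those of T cells. What free RNA added to them was not tested.

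The genes furthest on the lower side were immunoglobulin genes, led by Iglc2 with a ratio of -6.80 and Ighg1 with -6.40. At 5.31 and 18.8 CPM in the selected cells, Iglc2 and Ighg1 passed the filter only through the other macrophages and had to differ. In cells thinned to 2000 UMIs their ratios were -5.78 and -3.58, and that of Igkc was -1.99 in place of -4.73. The B and plasma cell list summed to 641 CPM in the selected cells and 14334 CPM in the other macrophages, with 5 of 6 genes 2-fold or more lower. Of the 5, Ighg2c, Ighm and Mzb1 passed the filter only through the other macrophages and had to differ. Igkc was the most abundant of the list, at 471 and 12458 CPM. Igkc stood at 2619.8 CPM in T cells. After thinning, Igkc was found in 27.4% of selected cells, 38.9% of other macrophages and 40.5% of T cells. Among cells of 4000 UMIs or more, an alternative added after seeing the data, the ratios of Igkc and Ighg1 were -5.19 and -6.87. These genes were thus lower under each of these settings, with a size that changed with the setting and in no single direction, and the part of these transcripts in the other ratios was not tested. When both groups were limited to cells of 4000 UMIs or more, 699 selected cells and 278 others remained, and 78 genes were 2-fold or more higher in place of 50.

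In the control Ab library, the 6 selected cells were set beside 200 other Lyz2 macrophages. Of 3336 genes, 689 (20.7%) were 2-fold or more higher in the selected cells and 289 (8.66%) lower, with a median of 0.26, on only 44723 UMIs for the selected cells. Of the 3336 genes, 2747 had 10 UMIs or fewer in the 6 cells, and 195 of the 289 lower genes were under 50 CPM in the selected cells and 407 of the 689 higher genes under 50 CPM in the other macrophages. Such genes passed the filter only through the side on which they were higher and had to differ, so nothing is read from these counts. At a limit of 200 CPM they were 77 and 47. Saa3 stood at 7043 CPM (6287 to 7866) against 145 CPM (121 to 173), a log2 ratio of 5.60 (5.30 to 5.90). Its 315 UMIs in the selected cells lay almost all in 3 of the 6 cells, a spread that these intervals do not cover. Over the alternative settings the ratio ran from 5.23 to 5.93. Ccl5 stood at 3846 against 112 CPM. Spp1 was lower in the selected cells, at 11694 against 70696 CPM. The microglial gene Fcrls stood at 511 CPM in these other macrophages and 105 CPM in those of the anti-CD9 Ab library, so the 2 comparison groups differed in that transcript and their ratios are not comparable.

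Between the libraries, 3444 genes passed the filter in the selected cells, of which 425 (12.3%) were 2-fold or more higher in the 871 anti-CD9 Ab cells than in the 6 control Ab cells and 548 (15.9%) lower, with a median log2 ratio of -0.09. Of the 3444 genes, 2855 had 10 UMIs or fewer in the control Ab cells, and 272 of the 425 higher and 385 of the 548 lower genes passed only through the library in which they were higher. These counts thus follow in large part from the filter, and at a limit of 200 CPM they were 79 and 54. Saa3 stood at 24571 CPM in the anti-CD9 Ab and 7043 CPM in the control Ab cells, a log2 ratio of 1.80 (1.64 to 1.96). That interval covers counting error only, while almost all Saa3 UMIs of the control Ab cells lay in 3 of the 6 cells. Over the alternative settings the ratio ran from 1.35 to 2.36, which is wider than the interval. Plac8 was at 1517 CPM and at 0 UMIs, which bounds its log2 ratio at 4.50 or more with a floor of 3 UMIs in the control Ab cells, and Apoc2, an apolipoprotein, at 819 CPM and at 0 UMIs, a bound of 3.61. Ms4a4c, a monocyte membrane protein, rested on 1 UMI in the control Ab cells, with a ratio of 4.78 (1.95 to 7.61), and so did Isg15, with 4.39 (1.56 to 7.22). Lower in the anti-CD9 Ab cells were Spp1, at 1048 against 11694 CPM, and Cd9, at 320.4 against 1565 CPM. Genes on the lower side also included Dscaml1, Ntrk2 and Aqp4, known from neurons and astrocytes, with 7, 16 and 9 UMIs in the control Ab cells and 1, 7 and 6 UMIs in the anti-CD9 Ab cells. Neural transcripts were thus present in the few control Ab cells, and their part in these ratios was not tested.

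The selected cells of the anti-CD9 Ab library also varied among themselves for genes outside the rule. In 809 cells thinned to 2000 UMIs, the variance divided by the mean had a median of 1.09 over 3235 genes. Saa3 had the highest value, 61.5, with 0 UMIs at the tenth percentile, 23 at the median and 123 at the ninetieth percentile, and a highest count of 260 UMIs. Apoe followed at 49.9, from 1 UMI at the tenth to 91.4 at the ninetieth percentile, and Fth1, the ferritin heavy chain, at 47.0. Igkc at 40.7, S100a9 at 38.3 and Spp1 at 33.6 were different in kind, since their medians were 0 UMIs and their highest counts 133, 109 and 116 UMIs. Igkc and S100a9 are transcripts of plasma cells and neutrophils, and their part in the spread was not tested. Among chemokine and cytokine genes, Ccl4 stood at 21.9, Cxcl10 at 20.03, Ccl5 at 17.9 and Il1b at 13.6. Cells of the same selection thus ranged from no Saa3 to 260 of 2000 UMIs.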

How the data were processed

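Live CD45 positive cells of the thalamus were measured in 2 libraries, 1 for each antibody, with the 10x Genomics 3′ v3.1 kit. The deposited matrices hold whole-number UMI counts per gene and cell barcode, made by the authors with Cell Ranger 8.0.0 on GRCm39 per the submitters' processing notes, with no normalization. The methods of the paper name an earlier Cell Ranger version and an earlier genome build instead, and the notes were followed here. For its flow cytometry in general, the study gives a light scatter gate against cell doublets, and removal of doublet barcodes is not given in the sources used here. No deposited cell annotation was used here.

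Cells were filtered and selected as the report states. For each cell group, counts were summed over cells and divided by the group's total (CPM). Since each antibody had 1 library, no test was made. Shares have exact Clopper-Pearson intervals, levels exact Poisson intervals and log2 ratios intervals from the counts, at 95%. A gene was compared when the mean of its CPM in both groups was at least 50, and a count of 0 was bounded at 3 counts. Cells were thinned to 2000 UMIs for shares of cells with a gene, which left 809 of 871 selected cells. Predicted doublets were scored by simulated pairs among 50 neighbours in 30 components of 2000 variable genes, at 0.8% per 1000 barcodes, which marked 9.79% of kept cells in the control Ab and 12.1% in the anti-CD9 Ab library, and were kept. Named are the rule genes and markers, the highest, lowest and most abundant gene of each of 27 lists, and the 10 highest and 10 lowest ratios of a comparison. Predicted gene models, mitochondrial and ribosomal protein genes were counted but not named, and other genes named were chosen after their values were seen. A gene of the rule, some listed genes and the results that need them are not reported here. The selected cells and the lists were chosen with earlier results of these data known.

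Alternatives were a mitochondrial limit of 2%, 5 UMIs for the rule, doublets or cells with neutrophil UMIs left out, thinned cells, 2 UMIs for a Nos2-positive cell, the mean over cells of CPM, centring on the median, limits of 20 and 200 CPM, and a pseudocount of 10 CPM. After the data were seen, the split by Nos2 alone, a limit of 4000 UMIs per cell and up to 2 neutrophil UMIs in the other macrophages were added. The scripts were tested on simulated data. Components were computed in scikit-learn 1.9.0 and intervals in SciPy 1.17.1, under Python 3.11.15 with NumPy 2.4.6. Tables were handled in pandas 2.3.3 and figures drawn in Matplotlib 3.10.9.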

Additional observations from a re-analysis of the deposited data

Results flagged for a closer look

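Cxcl13, which encodes the chemokine that attracts B cells, lay on opposite sides in the 2 libraries. In the control Ab library its log2 ratio of selected cells over other Lyz2 macrophages was 5.41, from 2795 and 65.8 CPM (125 and 58 UMIs, the former in 6 cells). In the anti-CD9 Ab library the ratio was -2.12, from 53.9 and 235 CPM. It was the 1 gene among 164 listed genes compared in both libraries that was past 2-fold in opposite directions. The other macrophages of the 2 libraries themselves differed, with the microglial gene Fcrls at 511 and 105 CPM, so the 2 ratios are not directly comparable, and the difference between the libraries was not tested.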

How the results depend on the processing

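Over 12 shares and counts of genes, 68 of 99 alternative values were labelled the same as the reported value and 31 as moved. The tolerance behind these labels is not given here, so the values below are to be read in place of the counts. With a mitochondrial limit of 2%, Nos2-positive cells were 50.9% of selected anti-CD9 Ab cells, 1016 genes were lower between the libraries and 1231 higher against control Ab macrophages. With 5 UMIs for the rule, selected cells were 0.0171% of control Ab and 4.82% of anti-CD9 Ab cells, and 47.3% of the latter were Nos2-positive. Without predicted doublets, the anti-CD9 Ab share was 5.32%, with 39.8% Nos2-positive cells. Without cells holding a neutrophil UMI, the shares were 0.0171% and 2.75%. In cells thinned to 2000 UMIs, the anti-CD9 Ab share was 8.44% of the cells deep enough, with 38.6% Nos2-positive cells. Where a Nos2-positive cell needed 2 UMIs, 32.8% were. The mean over cells gave 115 genes lower against other anti-CD9 Ab macrophages, and centring gave 440 lower against control Ab macrophages, with 53.2% in place of 70.4% of the genes past 2-fold on the higher side. At a limit of 20 CPM, genes higher and lower were 695 and 1419 between the libraries, 91 and 173 against anti-CD9 Ab macrophages, 1517 and 566 against control Ab macrophages, and 240 were lower in Nos2-positive cells. At 200 CPM they were 79 and 54, 24 and 18, 77 and 47, and 51 and 21 for Nos2-positive over Nos2-negative cells. With cells of 4000 UMIs or more, an alternative added after seeing the data, 78 genes were higher against anti-CD9 Ab macrophages. The cause of these shifts was not tested.

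Of 1757 alternative values for 196 ratios of named genes, 487 were labelled as moved, and of 827 for 86 list medians, 72 were, with the same limit. The sign changed in 43 of the former, over 21 ratios, and in 42 of the latter, over 26 medians, and in none of these was the reported ratio past 2-fold. Among ratios of selected over other anti-CD9 Ab macrophages, Ccl4 went from -0.66 to 1.56 and Lcn2 from -0.31 to 1.48 with cells of 4000 UMIs or more. Saa3 over other anti-CD9 Ab macrophages ranged from 1.57 to 2.15, Ptges from 1.94 to 2.90, and Inhba in Nos2-positive over Nos2-negative cells from 2.74 to 4.73. The type I interferon median for that comparison ranged from 1.16 to 2.27, the cytokine median from 0.89 to 1.33 and the lipid and lysosome median from -0.93 to -0.64. Among medians against other anti-CD9 Ab macrophages that changed sign, monocyte genes from -0.55 to 0.40, chemokines from -0.55 to 0.37 and identity genes from -0.37 to 0.20. Among those of Nos2-positive over Nos2-negative cells, prostaglandin genes ranged from -0.51 to 0.35, neutrophil genes from -0.22 to 0.90 and matrix genes from -0.28 to 0.37. Control Ab Nos2-positive shares and ratios were not run where fewer than 3 control Ab cells were left. Precision in the control Ab cells is limited by 44723 UMIs. No paired analysis was possible because each antibody had 1 library.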
